A study of Homo sapiens with 12 samples.

Results

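The 5 genes FOLH1, STEAP1, CD276, PSCA and CEACAM5 encode cell surface proteins that are used or tested as therapy targets in prostate cancer. Their rows were taken by symbol from the raw count tables, and all 5 were present among the 23228 genes listed. The libraries were polyA RNA-seq of C4.2B cells, a castration-resistant line derived from LNCaP prostate cancer cells. They asked how inhibitors of PI3K and of EZH2, the histone H3 lysine 27 methyltransferase, act alone and together. The DMSO arm received vehicle only. The GDC arm received 0.5 µM GDC-0941, which inhibits all class I PI3K isoforms, for 24 hours. The GSK arm was pretreated for 6 days with the EZH2 inhibitor GSK126 at 5 µM and kept in it for the final 24 hours. The COMBO arm received the same GSK126 pretreatment and then both agents for 24 hours. All 4 arms were in 10% charcoal-stripped serum for the final day, and each had 3 libraries (A, B and C) from plates seeded in triplicate. All plates came from 1 cell line, so p-values measure the spread between these plates.

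These proteins sit on the outer face of epithelial cells, where antibodies, radioligands and engineered T cells can reach them. FOLH1 encodes PSMA, a membrane peptidase that removes glutamate from folates and peptides and is the target of prostate cancer imaging agents and radioligands. STEAP1 is a multipass membrane protein of a metalloreductase family that handles iron and copper. CD276, also called B7-H3, is an immunoglobulin-domain protein of the B7 family of immune checkpoint ligands. PSCA and CEACAM5 are held by glycolipid anchors, PSCA in the LY6 family and CEACAM5, the carcinoembryonic antigen, in the CEACAM family. Therapies bind the protein, whereas only RNA was measured here.

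Upstream sequence is shown for the targets that the RefSeq promoter table held (3 of 5), to set a well-expressed gene beside a silent one and a gene beside its near copy. RefSeq windows of 300 bases around gene starts (GRCh38.p14) were used, cut to the bases upstream of every GENCODE exon at that start, all on the plus strand and 5′ to 3′. In the STEAP1 line (chr7:90154219-90154455), capitals mark the 6 of 237 bases that differ from the STEAP1B window at the same offset. In the CD276 line (chr15:73684133-73684268, within an intron of a longer GENCODE transcript) and the CEACAM5 line (chr19:41708376-41708584), capitals mark CpG dinucleotides, searched as CG.
STEAP1: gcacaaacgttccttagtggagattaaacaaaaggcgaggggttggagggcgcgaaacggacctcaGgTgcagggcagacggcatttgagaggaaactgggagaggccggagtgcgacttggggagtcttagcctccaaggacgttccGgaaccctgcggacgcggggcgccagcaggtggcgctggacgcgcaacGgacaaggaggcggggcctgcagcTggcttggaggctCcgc
CD276: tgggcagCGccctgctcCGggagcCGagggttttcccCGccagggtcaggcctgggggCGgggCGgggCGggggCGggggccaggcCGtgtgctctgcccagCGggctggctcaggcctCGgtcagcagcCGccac
CEACAM5: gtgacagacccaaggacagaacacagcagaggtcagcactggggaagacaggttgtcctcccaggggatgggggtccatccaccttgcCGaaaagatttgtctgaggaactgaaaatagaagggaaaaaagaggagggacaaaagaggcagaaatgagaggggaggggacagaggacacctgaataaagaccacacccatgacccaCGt

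Over the whole 300-base windows, CD276 held 37 CpG, STEAP1 27 and CEACAM5 2, beside a median of 14 over 35116 windows. CD276 had a further listed start with 28 CpG. Fewer CpG were found in 88.7% of windows than in that of CD276, in 71.8% than in that of STEAP1 and in 11.0% than in that of CEACAM5. The STEAP1 and STEAP1B windows were 96.7% identical. These are descriptions of the windows.

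Levels were compared between genes as CPM per kilobase of exon (CPM per kb), where CPM is a gene's count relative to its library size, scaled as usual to parts per megaread, with library sizes adjusted by edgeR's TMM method. In DMSO, FOLH1 stood at 221 ± 3.25 CPM per kb, above 99.3% of the 12087 tested genes with a length. STEAP1 followed at 93.7 ± 3.32 (above 96.9%) and CD276 at 26.9 ± 0.737 (above 85.1%), and PSCA stood at 1.98 ± 0.165 (above 30.1%) (SD, n = 3). The spreads of these neighbours did not meet in DMSO. CEACAM5 had 2 counts in all 12 libraries together.

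The 4 arms did not keep these distances. In COMBO, FOLH1 stood at 314 ± 10.3 CPM per kb, STEAP1 at 63.4 ± 5.9, CD276 at 33.6 ± 1.85 and PSCA at 11.4 ± 0.118, and PSCA then exceeded 71.4% of genes with a length. In GSK, STEAP1 at 50.5 ± 0.518 and CD276 at 40.4 ± 0.843 came closest to each other. The plot of levels by library shows all 5 genes.

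**Figure D1:**
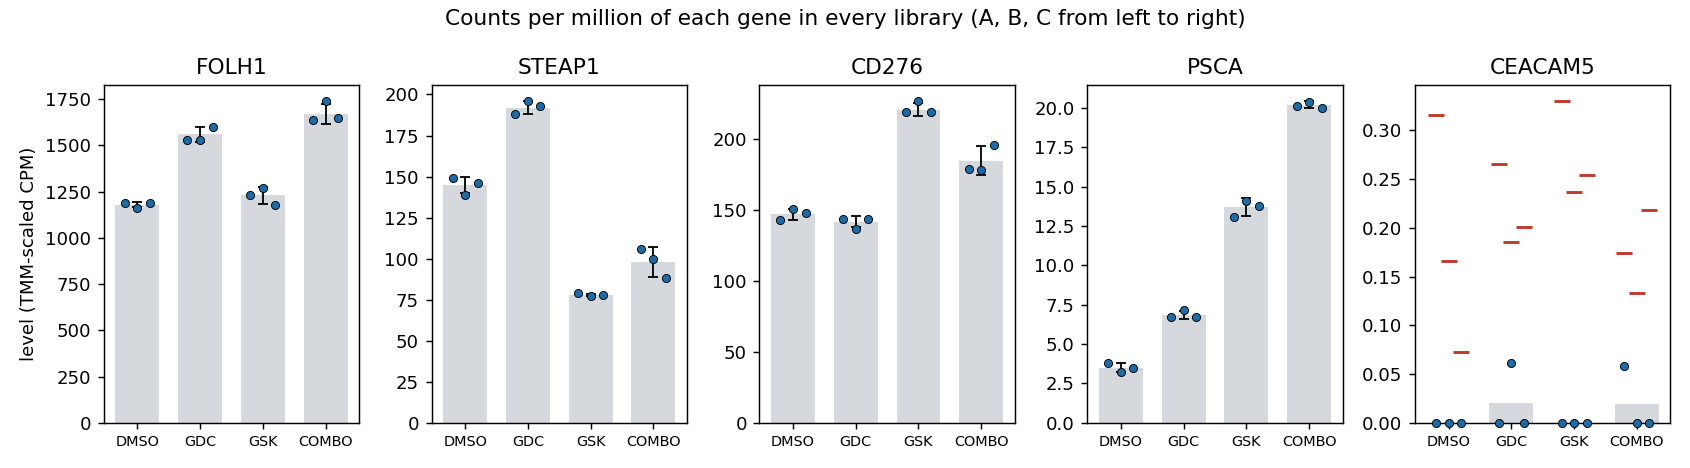
Level of each gene in TMM-scaled CPM on a linear axis from 0, with a point per library (A, B, C from left to right), bars at the arm mean and error bars of 1 SD (n = 3, not drawn for CEACAM5), and red dashes at the level of 3 counts in the CEACAM5 panel. PSCA ascends from 3.21 to 3.79 CPM in DMSO to 20 to 20.4 CPM in COMBO without overlap between arms, STEAP1 is lowest in GSK, and every CEACAM5 point lies under its dash.

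Depth was 8785218 to 44437751 counts in genes per library. The mean share of reads outside genes was 14.2%, 15.6%, 18.8% and 21.8% for DMSO, GDC, GSK and COMBO, a share that moved with the arms and whose part in the results was not tested. The 10 prostate luminal markers were all tested, and their summed level was 2620 to 2860 CPM for the DMSO libraries, 3870 to 4080 under GDC, 3670 to 4130 under GSK and 4470 to 4910 under COMBO. Under COMBO that sum rose most through KLK3 (597 ± 50.8 CPM in DMSO, 1840 ± 159 in COMBO). HOXB13 went the other way (484 ± 34.5 and 304 ± 6.53), and KRT18 stayed level (322 ± 25 and 320 ± 5.92). Of 10 markers of other cell types, 7 (KRT5, KRT14, TP63, PTPRC, DCN, PECAM1 and CHGA) had arm means of at most 0.21 CPM. The whole list summed to 12.1 to 13.8 CPM with vehicle, 12.9 to 16 under GDC, 28.4 to 40 under GSK and 31.9 to 50.1 under COMBO. That sum moved with COL1A1, a fibrillar collagen gene, with 10.5 ± 0.707 CPM for DMSO and 35.8 ± 9.34 under COMBO, while DCN, a fibroblast marker, had 0 counts in DMSO and 12 in COMBO over 3 libraries. In a lysate, a lower share of expressing cells and less RNA per cell cannot be told apart.

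Of the 5 targets, 4 passed the filter on low counts and were tested, CEACAM5 being too low. Genes were called at an adjusted p under 0.05 in edgeR's quasi-likelihood test with Benjamini-Hochberg adjustment over 14189 genes, and all adjusted p-values here come from it. Under GDC, 3 targets were called higher and 0 lower, while 20.0% of all genes tested were called higher and 20.0% lower. Under GSK, 2 were higher and 1 lower (all genes, 40.0% and 35.7%). Under COMBO, 3 were higher and 1 lower (all genes, 43.3% and 39.2%). Against GDC, COMBO had 3 higher and 1 lower (all genes, 37.9% and 38.0%), and against GSK also 3 and 1 (all genes, 19.0% and 26.9%). With so many genes called, these counts do not set the targets apart, and the sizes of the changes are given instead.

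Scaling moved the balance of all genes. Called genes were higher in 50% of cases under GDC and in 39.2% with DESeq2. Scaling by library totals took the higher share from 52.8% to 64% under GSK, from 52.5% to 63.3% under COMBO, from 49.9% to 62.8% for COMBO against GDC and from 41.4% to 52.3% for COMBO against GSK. It also raised the all-gene median of the log2 fold changes by 0.15 under GSK, by 0.21 under COMBO and by 0.17 for COMBO against GDC. A scaling shifts all genes of a comparison alike, so values relative to the median of all genes cannot show an effect of scaling. Relative to that median, FOLH1 changed by 0.45 under COMBO, STEAP1 by -0.61, PSCA by 2.49 and CD276 by 0.27.

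**Figure D2:**
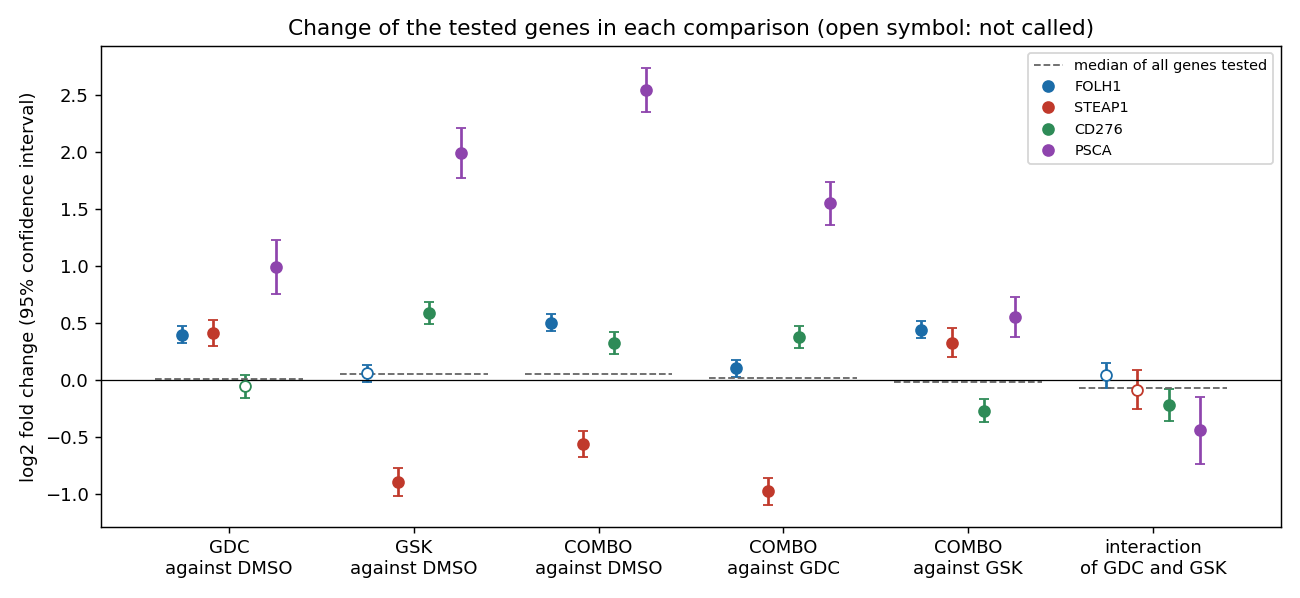
Log2 fold change of the 4 tested targets in each of 6 comparisons, with 95% confidence intervals, filled symbols where the adjusted p was under 0.05, and a dashed line at the median of all genes tested. PSCA has the largest change against DMSO in each treated arm (0.99, 1.99 and 2.55), and STEAP1 lies above 0 under GDC (0.41) and below 0 under GSK (-0.89) and COMBO (-0.56).

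FOLH1 (ENSG00000086205, hg38 chromosome 11, 49145092 to 49208638, minus strand) rose with the PI3K inhibitor, alone and in combination. Libraries A, B and C of DMSO held 1190, 1160 and 1190 CPM, those of GDC 1530, 1530 and 1600, those of GSK 1230, 1270 and 1180, and those of COMBO 1640, 1740 and 1650. The GDC and COMBO libraries were all above those of DMSO, while DMSO and GSK overlapped. The log2 fold change was 0.40 under GDC (SE 0.0367, 1.32-fold, adjusted p = 9.04e-08) and 0.51 under COMBO (SE 0.0366, 1.42-fold, adjusted p = 8.14e-11). It was 0.061 under GSK (95% interval -0.0161 to 0.137, adjusted p = 0.14), 0.0021 above the median of all genes. With library totals that value was 0.21 and was called (adjusted p = 1.69e-05), without GSK library B it was -0.0063, and with no filter -0.019. COMBO exceeded GSK by 0.45 (adjusted p = 6.34e-09) and GDC by 0.10 (adjusted p = 0.0144), the latter 0.091 and not called without COMBO library C (adjusted p = 0.0553).

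Of 4 FOLH1 relatives, 3 were tested. All 3 were called higher under GDC (all genes, 20.0%) and in COMBO against GSK (all genes, 19.0%). Under COMBO against DMSO 1 rose and 1 fell (all genes, 43.3% and 39.2%). FOLH1B, an unprocessed pseudogene copy on the same chromosome, had a DMSO mean of 25.8 CPM, and 35 under GDC, 24 under GSK and 28.6 under COMBO. It rose under GDC by 0.43 (adjusted p = 0.000581), whereas its values under GSK (-0.096, or 0.058 with library totals) and COMBO (0.15) were not called. COMBO was below GDC for FOLH1B (-0.28, adjusted p = 0.00601), the opposite of FOLH1. Reads of FOLH1 and FOLH1B may be split between the copies in counting, which makes the FOLH1B values uncertain. NAALAD2, a related dipeptidase gene, rose under GDC (0.47) and fell under GSK (-0.80) and COMBO (-0.53), and NAALADL2 rose under all 3 (0.27, 0.85 and 1.16), the first not called without DMSO library B.

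Among 8 genes of folate transport and polyglutamate metabolism, 6 were tested and all 6 fell under COMBO, with a median of -0.85 (all genes, 0.055), while 39.2% of all genes tested were called lower. Under GSK 5 fell (all genes, 35.7%) and under GDC 3 (all genes, 20.0%), and 0 rose in any of these arms. SLC25A32, the mitochondrial folate carrier, went from 55.1 ± 1.83 CPM with vehicle to 18.1 ± 1.23 under COMBO (-1.59, adjusted p = 1.28e-14). FOLR1 and FOLR2, folate receptors, had arm means of at most 0.079 CPM.

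STEAP1 (ENSG00000164647, hg38 chromosome 7, 90154456 to 90164829, plus strand) changed in opposite directions with the single agents. The DMSO libraries held 149, 139 and 146 CPM, the GDC libraries 188, 196 and 193, the GSK libraries 78.8, 77.2 and 78, and the COMBO libraries 106, 99.5 and 88. No arm overlapped another, GDC being highest and GSK lowest. The log2 fold change was 0.41 under GDC (SE 0.0548, 1.33-fold, adjusted p = 7.68e-06) and -0.89 under GSK (SE 0.0586, 1.85-fold lower, adjusted p = 3.36e-11). Under COMBO it was -0.56 (SE 0.0559, 1.47-fold lower, adjusted p = 1.3e-08). COMBO was below GDC by -0.97 (adjusted p = 3.51e-12) and above GSK by 0.33 (adjusted p = 0.000127). Only 7.9% of genes had a lower value under GSK.

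The near copy STEAP1B, whose window differs at the capitals in the STEAP1 line above, had a DMSO mean of 8.49 ± 0.465 CPM, and 10.6 ± 1.27 under GDC, 3.69 ± 1.45 under GSK and 4.25 ± 0.667 under COMBO. It fell under GSK (-1.16, SE 0.186, adjusted p = 1.27e-05) and COMBO (-0.97, SE 0.164, adjusted p = 1.87e-05), while its value under GDC (0.33) was not called. Reads may be shared between these copies, so the separate changes of STEAP1B are uncertain. STEAP2, an iron and copper reductase gene 2760 bases from STEAP1, had a DMSO mean of 661 ± 50.9 CPM, and 1010 ± 47.8 under GDC, 562 ± 17.4 under GSK and 912 ± 54.5 under COMBO. It rose under GDC (0.62) and, unlike STEAP1, under COMBO (0.46, adjusted p = 1e-07), and fell under GSK (-0.23), a call lost with library totals (-0.080, adjusted p = 0.161). STEAP3, the endosomal ferrireductase of erythroid cells, fell under GDC (-0.26) and COMBO (-0.75), and STEAP4 failed the filter on low counts. STEAP4, described after its values were seen, had 13 counts over the 3 DMSO libraries, 9 over those of GDC, 45 over those of GSK and 17 over those of COMBO. Its GSK libraries (0.549, 1.9 and 1.36 CPM) were all above those of DMSO (0.12 to 0.332), and without the filter it was called in GSK against DMSO (adjusted p = 1.84e-07) and in COMBO against GSK (adjusted p = 8.4e-05).

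Of 10 genes of iron and copper uptake and storage, 9 were tested, and 5 rose and 4 fell under COMBO, close to the shares of all genes (43.3% and 39.2%). Their median was 0.42, beside 0.055 for all genes. TFRC, the transferrin receptor that brings iron into the cell, went from 1140 ± 94.2 CPM with vehicle to 836 ± 53.5 under GDC, 422 ± 23.3 under GSK and 237 ± 10.9 under COMBO (-2.27, adjusted p = 1.14e-17). CYBRD1, a ferric reductase, was near the detection limit at 0.256 ± 0.0701 CPM in DMSO and 0.961 ± 0.431 in COMBO (1.68, adjusted p = 0.000836).

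CD276 (ENSG00000103855, hg38 chromosome 15, 73683966 to 73714514, plus strand) rose with the EZH2 inhibitor and less so in COMBO. The DMSO libraries held 143, 151 and 148 CPM and the GDC libraries 144, 137 and 144. The GSK libraries held 219, 227 and 219 CPM and the COMBO libraries 179, 178 and 196. DMSO and GDC overlapped, and COMBO lay between them and GSK without overlap. The log2 fold change was 0.59 under GSK (SE 0.0475, 1.51-fold, adjusted p = 7.26e-10) and 0.33 under COMBO (SE 0.047, 1.25-fold, adjusted p = 2.4e-06). Under GDC it was -0.053 (95% interval -0.153 to 0.0467, adjusted p = 0.402). COMBO was below GSK by -0.26 (adjusted p = 0.000118) and above GDC by 0.38 (adjusted p = 4.79e-07).

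In the B7 family, 8 of 9 listed relatives were in the tables and 3 were tested. Of these, 2 rose and 1 fell under COMBO (all genes, 43.3% and 39.2%). A relative low in DMSO can pass the filter on low counts through a treated arm, whereas one that stays low is not tested. VSIR, an inhibitory checkpoint protein also called VISTA, was at 0.233 ± 0.0762 CPM in DMSO, 0.929 ± 0.342 in GSK and 0.664 ± 0.176 in COMBO, and rose under GSK (2.01) and COMBO (1.59, adjusted p = 0.00182). ICOSLG, a costimulatory ligand, fell in every treated arm, from 11.5 ± 0.159 CPM in DMSO to 5.78 ± 0.432 in COMBO (-0.97, adjusted p = 5.39e-08). CD274, which encodes PD-L1 and was named after its values were seen, had 0.548 ± 0.154 CPM with vehicle and 1.02 ± 0.651 under COMBO, with overlapping libraries (0.99, adjusted p = 0.0377). CD80, CD86, PDCD1LG2, VTCN1 and HHLA2 failed the filter and had arm means of at most 0.302 CPM. Without the filter, HHLA2 was called in GSK against DMSO (adjusted p = 0.00857, 10 and 2 counts) and in the interaction (adjusted p = 0.0448). VTCN1 was then called in COMBO against DMSO (adjusted p = 0.0342, 5 and 0 counts).

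PSCA (ENSG00000167653, hg38 chromosome 8, 142670308 to 142682725, plus strand) rose in every treated arm and most in COMBO. The DMSO libraries held 36, 58 and 144 counts (3.79, 3.21 and 3.46 CPM) and the GDC libraries 76, 116 and 100 (6.72, 7.15 and 6.71 CPM). The GSK libraries held 119, 179 and 163 counts (13.1, 14.1 and 13.8 CPM) and the COMBO libraries 346, 460 and 274 (20.1, 20.4 and 20 CPM). In CPM the arms stood in this order without overlap. The log2 fold change was 0.99 under GDC (SE 0.113, 1.99-fold, adjusted p = 1.27e-06), 1.99 under GSK (SE 0.104, 3.98-fold, adjusted p = 1.06e-12) and 2.55 under COMBO (SE 0.0947, 5.84-fold, adjusted p = 1.76e-15). COMBO exceeded GSK by 0.56 (adjusted p = 1.88e-05) and GDC by 1.55 (adjusted p = 3.94e-12). Lower values were found for 97.5% of genes under GDC, 94.5% under GSK and 95.7% under COMBO.

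PSCA shares 367 exon bases with JRK, a gene on the opposite strand, and the sources used here do not state whether counting used strand. JRK changed by 0.012 under GDC (adjusted p = 0.925), -0.28 under GSK (adjusted p = 0.00453) and -0.054 under COMBO (adjusted p = 0.514). The part of reads from the shared bases in the PSCA counts was not tested. Of 11 other LY6 family genes, 4 were tested. Under COMBO 3 of these rose (LYNX1, LYPD3 and LYPD6) and 1 fell (LY6E), with 43.3% of all genes tested called higher and 39.2% lower. LYNX1, a modulator of nicotinic receptors, had 23.7 ± 0.964 CPM with vehicle and 36.2 ± 0.301 under COMBO, and LYPD6 at 1.6 ± 0.455 in DMSO, 5.05 ± 0.864 in GSK and 3.07 ± 0.848 in COMBO. These LY6 genes were named after their values were seen, and the COMBO changes of the 4 tested (0.61, 0.51, 1.06 and -0.33) were each nearer to 0 than that of PSCA. SLURP1, also named after its values were seen, failed the filter, with 2 counts over the DMSO libraries and 18 over those of COMBO. Its ratio in pooled counts per scaled read was 11.6 (exact 95% interval 2.79 to 103, counting error only), beside 5.84-fold for PSCA. Without the filter SLURP1 was called in COMBO against DMSO (adjusted p = 0.000817) and in GSK against DMSO (adjusted p = 0.00332). It had 11 counts over the GSK libraries, and COMBO against GSK was not called (adjusted p = 0.979).

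CEACAM5 (ENSG00000105388, hg38 chromosome 19, 41708585 to 41730433, plus strand) was not detected in DMSO or GSK. It had 1 count in GDC library B, 1 in COMBO library A and 0 in the other 10 libraries. The upper limit of a library without a count is set at 3 counts, equal to 0.0722 to 0.316 CPM for the DMSO libraries, 0.201 to 0.265 for the GDC libraries at 0, 0.237 to 0.33 for GSK and 0.133 to 0.218 for the COMBO libraries at 0. Pooled over an arm, that limit was 0.0434 CPM for DMSO and 0.0894 for GSK. The single count of an arm gave an exact 95% Poisson interval of 0.000596 to 0.131 CPM for GDC and 0.000473 to 0.104 for COMBO. For the arms without a count, the same kind of interval reached up to 0.0533 CPM for DMSO and 0.11 for GSK. These limits and intervals cover counting error only. Without the filter, the unadjusted p under GDC was 0.273 and under COMBO 0.308, and no change was detectable at this depth. Its CpG-poor upstream bases are those printed above, and a relation of CpG content to level was not tested.

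The neighbouring CEACAM6, 20543 bases away, had 1 count in GSK, 2 in COMBO and 0 elsewhere. Of 10 CEACAM relatives, 2 were tested, CEACAM1 and CEACAM19. A gene as low as these in DMSO can pass the filter on low counts through a treated arm. CEACAM1, a widely expressed adhesion receptor, had a DMSO mean of 0.439 ± 0.276 CPM, and 0.446 ± 0.0453 under GDC, 2.8 ± 0.361 under GSK and 3.32 ± 0.345 under COMBO. It rose under GSK (3.09, SE 0.315, adjusted p = 2.6e-08) and COMBO (3.31, SE 0.286, adjusted p = 1.4e-09). Its libraries in GSK and COMBO were all above those in DMSO and GDC. CEACAM19 rose under GSK (1.39, adjusted p = 0.00252), at 1.01 ± 0.357 CPM. CEACAM20, named after its values were seen, had 0 counts in DMSO and 15 over the 3 COMBO libraries.

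The 5 targets were next set beside 40 other cell surface proteins that are or have been therapy targets, of which 30 were tested. The filter on low counts, the same for all genes, can pass a gene through the arm where it is high. Counts of rises among low genes can be favoured by it. Under GDC 14 rose and 4 fell, with 20.0% of all genes tested called higher and 20.0% lower. Under GSK 21 rose and 6 fell (all genes, 40.0% and 35.7%), and under COMBO 20 rose and 7 fell (all genes, 43.3% and 39.2%). Their median log2 fold change was 0.28, 0.64 and 0.99 in these arms, beside 0.016, 0.059 and 0.055 for all genes tested. FOLH1 (0.51) and CD276 (0.33) lay below the median of these targets under COMBO, PSCA (2.55) above it, and STEAP1 (-0.56) on the side of the targets that fell. In COMBO against GDC 17 of the 30 were higher and 7 lower (all genes, 37.9% and 38.0%), and in COMBO against GSK 8 were higher and 3 lower (all genes, 19.0% and 26.9%).

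The 3 other targets with the largest called rise in COMBO were low in DMSO. A gene this low in DMSO can pass the filter through a treated arm, whereas one that stays low is not tested. Their low start is therefore no result in itself. F3, the coagulation tissue factor, had 2 counts over the 3 DMSO libraries, 8 over those of GDC, 18 over those of GSK and 53 over those of COMBO, and COMBO exceeded DMSO by a ratio of 34.3 in pooled counts per scaled read (exact 95% interval 9.03 to 290, counting error only). L1CAM, a neural adhesion molecule, went from 0.742 ± 0.163 CPM in DMSO to 7.57 ± 1.04 in GSK and 6.62 ± 0.903 in COMBO (3.27, adjusted p = 1.05e-11). TMEFF2, a transmembrane protein of prostate and brain, went from 0.199 ± 0.175 CPM to 1.99 ± 0.483 in COMBO (2.95, adjusted p = 8.79e-07). GRPR, the bombesin receptor, fell from 4.88 ± 0.539 to 2 ± 0.235 CPM (-1.29), EPHA2, an ephrin receptor, from 12 ± 0.413 to 5.9 ± 0.247 (-1.00), and CDCP1, a SRC substrate, from 150 ± 4.68 to 85.7 ± 1.94 (-0.81).

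**Figure D3:**
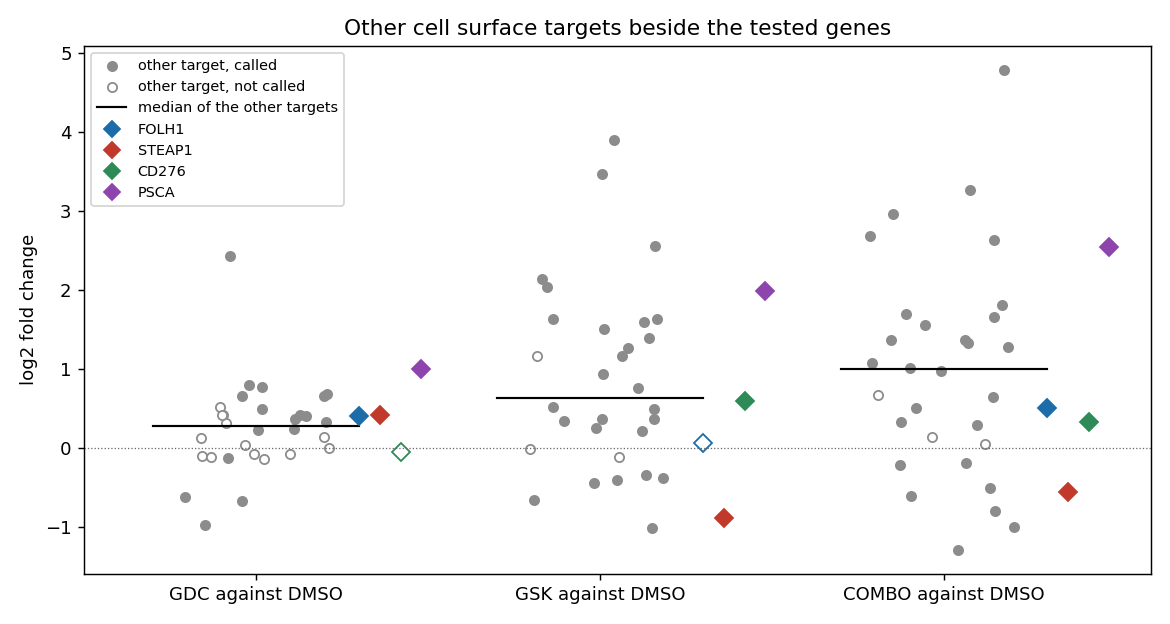
Log2 fold change against DMSO of 30 other cell surface targets (grey circles, open where not called, line at their median of 0.28, 0.64 and 0.99) and of the 4 tested genes (diamonds, open where not called). PSCA lies above the line in all 3 arms and STEAP1 below it under GSK and COMBO.

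For each tested target, the 3 most similar of 11396 other genes with a mean log2 CPM of at least 2 were found by Euclidean distance over the log2 fold changes in GDC, GSK and COMBO. Nearest to FOLH1 were LOC254128 (distance 0.0709), C11orf54 (0.0712) and XRN1 (0.0874). Nearest to STEAP1 were DGKB (0.0394), NAALAD2 (0.108) and SAMD13 (0.177). DGKB, a diacylglycerol kinase gene, changed by 0.41, -0.89 and -0.60 in the 3 arms, and NAALAD2, the FOLH1 relative described above, lay nearer to STEAP1 than to FOLH1. Nearest to PSCA were ITGB4 (0.194), BLNK (0.195) and DQX1 (0.21), and ITGB4, an integrin subunit, changed by 1.09, 2.14 and 2.46. Nearest to CD276 were LIN37 (0.0191), C21orf67 (0.0261) and PIP4K2C (0.0296). The distance rests on 3 values that share the DMSO libraries.

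Additivity of both agents on the log2 scale was tested as an interaction, the COMBO effect less those of GDC and of GSK. The test called 0 targets higher and 2 lower, with 4.86% of all genes called higher and 16.5% lower. Of called genes 22.7% were higher, and with DESeq2 35%. PSCA had an interaction of -0.44 (95% interval -0.733 to -0.145, adjusted p = 0.031) and CD276 of -0.21 (95% interval -0.352 to -0.0711, adjusted p = 0.0293). PSCA in COMBO was still the highest arm (2.55, beside rises of 0.99 and 1.99 with the single agents). FOLH1 (0.044, 95% interval -0.0646 to 0.152, adjusted p = 0.602) and STEAP1 (-0.082, 95% interval -0.251 to 0.0868, adjusted p = 0.517) were not called.

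Both interaction calls were lost in other settings. With DESeq2 the PSCA value was -0.39 (adjusted p = 0.14) and the CD276 value -0.17 (adjusted p = 0.0829), and neither was called. Both calls were also lost with DESeq2 size factors in edgeR, with no filter and with a filter of 1 mean CPM, and that of CD276 with library totals. Leaving out 1 library ended the PSCA call in 11 of 12 fits, all but that without COMBO library B, with values of -0.44 to -0.33. It ended the CD276 call in 10 of 12 fits, all but those without GSK library C and COMBO library C, with values of -0.24 to -0.12. The median interaction of all genes moved as well, from -0.063 as reported to -0.018 with DESeq2, 0.049 with no filter and -0.063 to 0.0085 without single libraries. The share of called genes that were higher was 55.4% with no filter, 40.7% with a filter of 1 mean CPM and 25.1% to 43.7% without single libraries. Relative to that median, which removes any effect of scaling by construction, PSCA was at -0.38 and CD276 at -0.15. These centred values had no test, and whether COMBO departed from additivity for either gene was not settled.

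**Figure D4:**
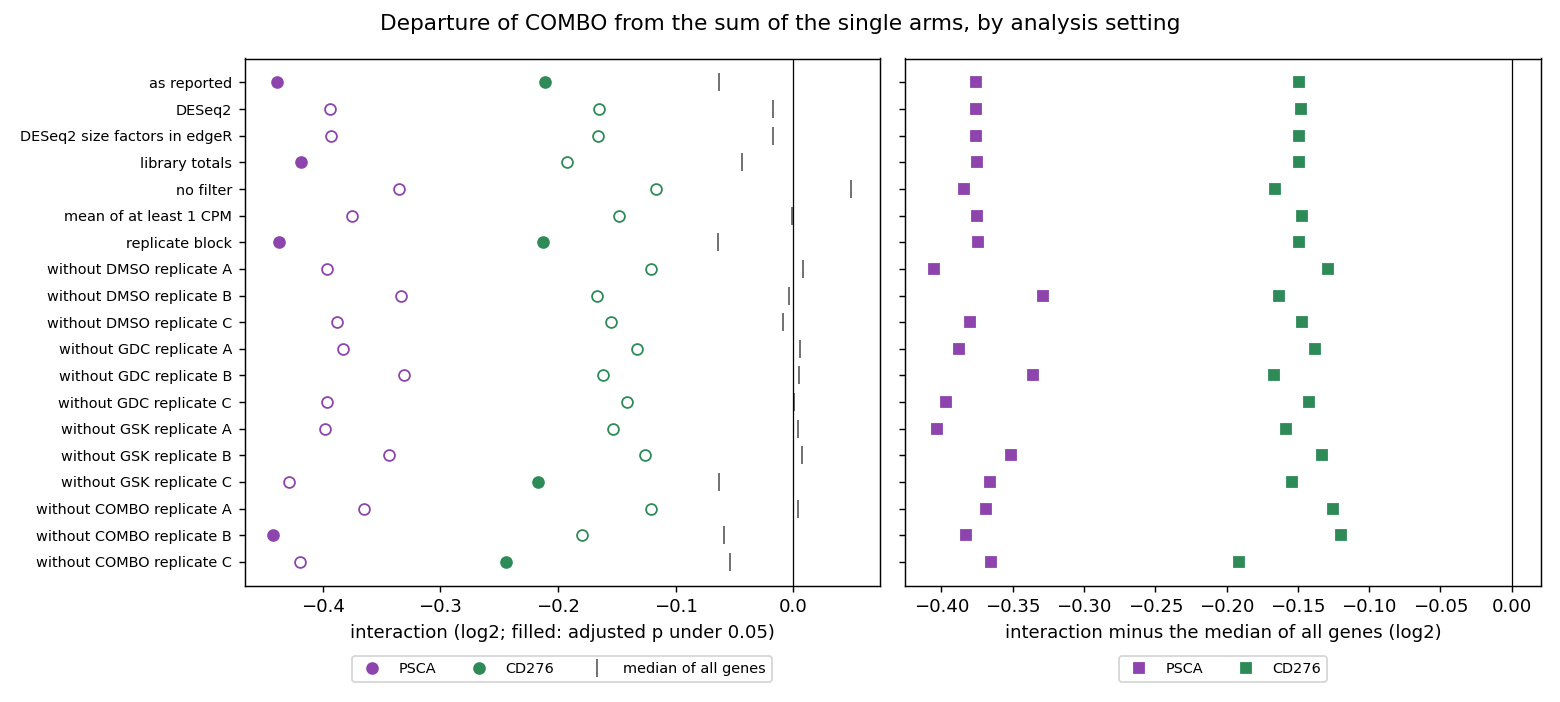
Interaction of GDC and GSK for PSCA and CD276 under each analysis setting (rows), in log2 units. The left panel gives the fitted values (filled where the adjusted p was under 0.05) with ticks at the median of all genes, and the right panel gives the values minus that median, from -0.405 to -0.329 for PSCA and from -0.191 to -0.12 for CD276, where a pure change of scaling cannot move a point.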

How the data were processed

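The authors aligned reads to hg38 by STAR and counted them by HTSeq, and deposited raw counts under gene symbols. Versions, annotation and strand use are not given in the sources used here. The deposited table of DESeq2-normalized values was not used. Summary lines, which held reads outside genes, were left out, as were genes failing filterByExpr (14189 of 23228 kept). There were 0 columns of per-sample values without a library. Tests were two-sided and used edgeR 4.0.16 (R 4.3.3), whose quasi-likelihood model was fitted once to all 12 TMM-scaled libraries with 1 coefficient per arm. As alternatives, DESeq2 1.42.0 was run, edgeR was scaled by DESeq2's size factors or by library totals, the filter was dropped or set to 1 mean CPM, only the compared arms were fitted, a replicate block was added, and each library was left out in turn. Replicates differed by more than sampling noise (chi-square per degree of freedom up to 6.49). Scripts were tested on simulated data.

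The targets and lists were chosen with earlier results of these data known. Named were the 5 targets, 4 paralogs (FOLH1B, STEAP1B, STEAP2 and CEACAM6), the 3 called genes with the largest rise and fall under COMBO among family members and among other surface targets, the 2 with the largest change in the folate and the iron and copper lists, the 3 genes nearest to each target, and cell markers. A gene named by this rule is not reported here. Other names were added after their values were seen. Coordinates and exon lengths are from GENCODE 44 on hg38, and a length was found for 85.2% of tested genes. Upstream sequence is from RefSeq.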

Additional observations from a re-analysis of the deposited data

Results flagged for a closer look

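PSCA passed the test of a different GDC-0941 effect with and without GSK126, an interaction of -0.4389 (edgeR quasi-likelihood test, adjusted p = 0.031, SE 0.141). The call was lost with DESeq2, DESeq2 size factors, no filter and a filter of 1 mean CPM, and in 11 of 12 fits without a library (-0.442 to -0.331 over the 12). GDC-0941 raised PSCA by 0.99 without GSK126 and by 0.56 with it, on the log2 scale, in 3 of 3 libraries each.

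CD276 also passed it, at -0.2113 (adjusted p = 0.0293, SE 0.0671). The call was lost with DESeq2, both other scalings in edgeR and both other filters (-0.12 with no filter), and in 10 of 12 fits without a library (-0.244 to -0.121 over the 12). GDC-0941 changed CD276 by -0.053 without GSK126 and by -0.26 with it, and all 3 COMBO libraries were below all 3 GSK libraries in the latter.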

How the results depend on the processing

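Against DMSO and between arms, each call and direction of the 4 tested targets was the same in all 19 alternatives (DESeq2, 2 other scalings, 2 other filters, fits of the compared arms, a replicate block and 12 fits without a library), with 2 exceptions, both of FOLH1. Under GSK it was 0.21 and called with library totals, -0.019 with no filter and -0.0063 to 0.0899 without single libraries. COMBO against GDC was 0.0869 to 0.159 without single libraries and lost its call without COMBO library C. The interaction called 0 targets with DESeq2, DESeq2 size factors, no filter or a filter of 1 mean CPM, 1 with library totals, and 0 to 1 without single libraries. For PSCA it was -0.39 with DESeq2 and with its size factors, -0.34 with no filter, -0.38 with a filter of 1 mean CPM and -0.442 to -0.331 without single libraries. For CD276 it was -0.17 with DESeq2 and with its size factors, -0.19 with library totals, -0.12 with no filter, -0.15 with a filter of 1 mean CPM and -0.244 to -0.121 without single libraries. For STEAP1 it was 0.012 with no filter and -0.0859 to 0.0057 without single libraries. Among the 30 other surface targets it called 7, of which 1 was higher and 6 lower (all genes, 4.86% and 16.5%). Without single libraries it called 2 to 7 of them, while the share of all genes called lower was 8.86% to 15.7%. Uncalled GDC values turned sign without single libraries for CEACAM1 (-0.22 to 0.76), VSIR (-0.59 to 0.24) and L1CAM (-0.22 to 0.27), and under GSK for FOLH1B with library totals (0.058). The scaling and filter alternatives moved the median of all genes, and other causes were not tested.

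Same-letter deviations correlated at -0.0839 to 0.188 over 18 pairs of libraries and those of other letters at -0.146 to 0.104 over 36. These overlapping ranges cannot settle whether the letters A, B and C paired the samples. Between GDC and COMBO, same-letter pairs correlated at 0.116, 0.188 and 0.0727, and other-letter pairs at -0.146 to 0.0453. With a replicate block, the interaction was -0.44 for PSCA (adjusted p = 0.0479) and -0.21 for CD276 (adjusted p = 0.037), and no call of the 4 targets changed. The low counts of PSCA in DMSO (36 to 144) limit its precision, and for CEACAM5 the depth allows only an upper limit.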
